A study of Mus musculus with 3 samples.

Results

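The B lineage-like cells described here are 649 of 21251 sorted mouse bone marrow cells, and 633 of them came from the wild-type library. They were selected on measured values: a cell was a member when its raw counts of 5 transcripts, Cd79a, Vpreb3, Ebf1, Igll1 and Vpreb1, summed to at least 10 per 10000 of its unique molecular identifier (UMI) counts. The cells had been sorted as LSK, that is negative for lineage surface markers and positive for Sca-1 (gene Ly6a) and Kit, a fraction that holds blood stem cells and multipotent progenitors. There was 1 Chromium 3′ v2 library per genotype: WT was Spop(+/+) Myd88(+/+), KO was Spop(D/D) Myd88(+/+) and DKO was Spop(D/D) Myd88(-/-). What drives the deletion, the age of the mice and the number of mice behind each library are not given in the sources used here. As no genotype was replicated, no test was made, and all intervals below are 95% intervals that cover counting error only.

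B cell development begins when lymphoid progenitors that express the interleukin-7 receptor and the receptor tyrosine kinase Flt3 switch on the transcription factors EBF1 and then PAX5. Pro-B cells rearrange the immunoglobulin heavy chain gene with the RAG1 and RAG2 recombinase, while terminal transferase (Dntt) adds bases at the joints. The new heavy chain pairs with a surrogate light chain, made of VPREB and lambda 5 (Igll1), and with the signalling chains CD79A and CD79B to form the pre-B cell receptor. Cells of this kind are usually found outside the LSK gate, because lineage cocktails commonly contain a B220 antibody and because Kit declines as the lineage advances.

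The genes of the surrogate light chain carry much of what follows, and they sit close together. In GENCODE vM21 on GRCm38, Igll1 lies on the minus strand of chromosome 16 at chr16:16860671-16863985, and Vpreb1 lies 4417 bases away at chr16:16868403-16870843, also on the minus strand. Vpreb2, a close copy of Vpreb1, lies at chr16:17980428-17981273 on the plus strand. Cd79a is at chr7:24897381-24902197 on the plus strand. Upstream sequence of each gene (RefSeq, GRCm38.p6) is given below, 5′ to 3′ on the gene's own strand, because all 4 genes were high in members. The RefSeq window of 250 bases was used, and for Vpreb2 and Cd79a only its part before the GENCODE start, which lies further upstream than the RefSeq start. The Vpreb1 window ends at the start of the coding transcript, base 16869255, and lies within the gene span given above because noncoding transcripts of Vpreb1 begin further upstream. Capitals mark the E-box CAGGTG or its reverse complement CACCTG, the sequence bound by E2A, an early B lineage factor, and by related proteins.
Igll1, 250 bases upstream, chr16:16863986-16864235, minus strand: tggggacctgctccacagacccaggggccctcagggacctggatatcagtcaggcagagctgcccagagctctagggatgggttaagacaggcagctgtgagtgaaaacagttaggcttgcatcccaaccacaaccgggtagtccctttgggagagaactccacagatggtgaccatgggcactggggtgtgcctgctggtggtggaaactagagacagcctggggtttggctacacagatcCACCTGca
Vpreb1, 250 bases upstream, chr16:16869256-16869505, minus strand: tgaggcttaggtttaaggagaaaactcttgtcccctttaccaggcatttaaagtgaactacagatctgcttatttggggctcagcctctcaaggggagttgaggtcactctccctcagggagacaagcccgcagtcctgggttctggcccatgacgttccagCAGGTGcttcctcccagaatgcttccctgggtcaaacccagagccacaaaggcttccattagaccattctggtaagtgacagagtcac
Vpreb2, 113 bases upstream, chr16:17980315-17980427, plus strand: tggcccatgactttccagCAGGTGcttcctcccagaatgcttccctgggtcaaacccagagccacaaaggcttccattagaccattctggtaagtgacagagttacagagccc
Cd79a, 134 bases upstream, chr7:24897247-24897380, plus strand: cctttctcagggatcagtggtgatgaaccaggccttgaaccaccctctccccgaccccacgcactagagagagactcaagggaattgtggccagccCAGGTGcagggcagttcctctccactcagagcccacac
Counted from the start of the GENCODE coding transcript, with the base before it as -1, the E-box began at -8 in Igll1, -88 in Vpreb1, -95 in Vpreb2 and -38 in Cd79a. The full RefSeq windows of 250 bases also held it in Rag1 and Bfsp2 and did not in Vpreb3 and Ebf1. Of 32851 such RefSeq windows, 17.2% held it on either strand. The core CCCNNGGG of the sequence bound by EBF1, which is its own reverse complement, was in the RefSeq window of Igll1 alone among these genes, at -231, and in 11.8% of all windows. A stretch of 103 bases was shared by the Vpreb1 and Vpreb2 windows with 102 identical bases, at -106 to -4 in Vpreb1 and -113 to -11 in Vpreb2. Matches to these letters describe the windows and do not show binding.

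Members made up 7.77% of the WT library (633 of 8147 cells, interval 7.20 to 8.37%). They were 0.102% of KO cells (5 of 4920, 0.0330 to 0.237%) and 0.134% of DKO cells (11 of 8184, 0.0671 to 0.240%). The libraries held 85700749 to 109920419 UMIs, with medians of 9245 UMIs per WT cell, 17319 per KO cell and 12404.5 per DKO cell. Of the cell barcodes, 183 occurred in more than 1 library, and 12 WT members but no KO or DKO member carried such a barcode. In UMIs per 1000000 UMIs (CPM), Spop transcripts were at 70.7 in the WT library, 63.1 in the KO and 77.1 in the DKO library. Myd88 transcripts were at 13.7, 25.8 and 4.47 CPM in the same order. Counts near the 3′ end of a transcript can lie outside the deleted part, so the Spop values do not check the labels. Fewer cells of a kind in a library can come from the tissue or from the sort, and these cannot be told apart here.

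**Figure D1:**
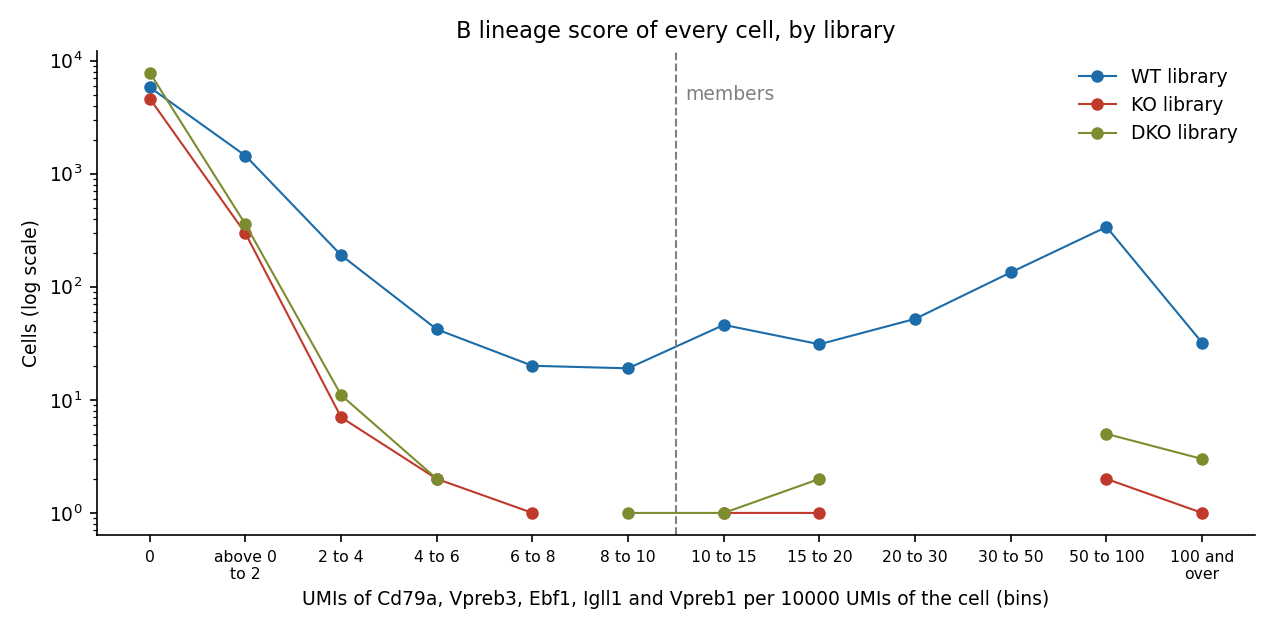
Number of cells (log scale) in bins of the B lineage score, the summed UMIs of Cd79a, Vpreb3, Ebf1, Igll1 and Vpreb1 per 10000 UMIs of the cell, for the WT, KO and DKO libraries. Bins without cells have no point. Bins above 10 are wider than those below, so neighbouring counts do not show density. The WT library has 633 cells to the right of the dashed line at 10, against 5 KO and 11 DKO cells.

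The median score over WT members was 55.8 per 10000, with a range of 10.1 to 199.8, and 5803 of the 7514 other WT cells had none of the 5 transcripts. All 5 transcripts were found in 476 of the 633 members, 4 in 64, 3 in 56, 2 in 31 and 1 in 6. The 16 WT cells just inside the threshold, at scores under 12, and the 19 just outside, at 8 or more, differed little at several genes. Ebf1 was 610 CPM inside and 577 outside, Ly6d 1654 and 1349, and Dntt 2233 and 2009. Igll1 reached only 7.73 and 16.7 CPM at this edge, and Lef1 had no UMI there. Cd79a differed more, at 371 CPM inside and 167 outside, and so did Prtn3, a neutrophil progenitor gene, at 7.73 and 172. Vpreb3, also in the rule, was lower inside, at 23.2 CPM against 83.3, on 3 and 15 UMIs. The Prtn3 values rest on 1 UMI inside and 31 outside, and those of Igll1 on 1 and 3. The score range sets the sum of the 5 rule genes in these cells, and Ebf1 made up more of it than Igll1 on both sides. Outside the rule, Ly6d and Dntt were high on both sides of the threshold.

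Because the 5 genes defined the cells, each was also read in cells chosen by the other 4 at a score of at least 8. Ebf1, the transcription factor, was 1379 CPM in the 568 cells so chosen and 19.1 CPM in the rest of WT, a ratio of 72.1 (68.3 to 76.2). Cd79a, a signalling chain of the receptor, was 872 against 5.76 CPM, a ratio of 152 (138 to 167). Igll1, the lambda 5 chain, was 1186 against 5.21 CPM, a ratio of 228 (206 to 252). Vpreb1, its partner, was 1290 against 9.47 CPM, a ratio of 136 (126 to 147), and Vpreb3 was 882 against 3.93 CPM, a ratio of 224 (200 to 253). These cells and this library are the ones that the rule itself was applied to, so the ratios describe how closely the 5 transcripts went together.

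RNA released from broken cells gives a low share of UMIs in every droplet, and 129 WT cells with at least 5 UMIs of Pf4, a platelet gene, served as a measure of it. At 5500 UMIs per cell, a fixed number to which each cell was thinned, Igll1 was found in 2.4% of Pf4-rich cells, 3.0% of all other WT cells and 82.4% of members. Vpreb1 was found in 4.8%, 5.3% and 83.4%. Both shares in other WT cells were thus close to those in Pf4-rich cells. Ebf1 was at 0.8% of Pf4-rich cells, 3.6% of other WT cells and 99.2% of members. Before thinning the Ebf1 shares were 0.8%, 5.3% and 100%, at median depths of 13101, 9096 and 12879 UMIs.

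The comparison group closest to the members is the set of 2257 WT non-members with at least 2 UMIs of Dntt, called Dntt-positive cells below. Ebf1 was found in 8.4% of them at equal depth and reached 26.4 CPM (24.4 to 28.5), against 0.588 CPM (0.0149 to 3.28) in Pf4-rich cells. Igll1 was found in 2.7% of Dntt-positive cells and Vpreb1 in 6.7%.

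Lef1, Cecr2 and Pax5 had the highest ratios of members to the 7514 other WT cells. As members were chosen on their own counts, these ratios and those below describe the cells and test nothing. Among 5141 genes with a mean of at least 20 CPM over the pair and outside the rule, 218 (4.24%) were at least 2-fold higher in members and 315 (6.13%) at least 2-fold lower. Against Dntt-positive cells, 177 (3.48%) of 5082 genes were higher and 245 (4.82%) lower. The genes with the highest ratios to other WT cells included Lef1, Cecr2, Pax5, Gfra2, Pou2af1, Akap12, Vpreb2, Id3 and Bst1. Of those not described below, Cecr2, a chromatin remodelling factor, was 95.8 CPM in members and 0.325 in other WT cells. Bst1, the surface enzyme CD157, was 41.7 against 0.559, Akap12, a scaffold of signalling kinases, 63.5 against 0.533, and Gfra2, a receptor of the neurturin family, 53.1 against 0.325. Members also held more UMIs per cell, with a median of 12879 against 9096 in other WT cells and 9830 in Dntt-positive cells. Scaling by the TMM method shifted all log2 ratios up by 0.15 against other WT cells and by 0.12 against Dntt-positive cells. Under it 286 genes were higher and 239 lower against other WT cells, and 240 and 191 against Dntt-positive cells, so that under TMM the higher genes were the larger group.

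For gene lists, a gene counted as measured at a mean of at least 5 CPM over the pair. On that scale 3.72% of 8975 genes were at least 2-fold higher in members than in other WT cells and 10.0% at least 2-fold lower, with a median log2 ratio of -0.10. Against Dntt-positive cells the shares were 3.04% and 8.0% of 8861 genes.

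Receptor and signalling genes of the pre-B stage numbered 12 measured, of which 6 were at least 2-fold higher in members than in other WT cells and none were at least 2-fold lower. Vpreb2, a surrogate light chain gene, was 176 CPM in members and 1.58 in other WT cells, a ratio of 111 (92.3 to 135). The coding transcripts of Vpreb1 and Vpreb2 are 97.4% identical over 759 bases, so reads that fit both copies may have affected their counts. Cd79b, the second signalling chain, was 364 CPM against 38.5, a ratio of 9.45 (8.99 to 9.94). Blnk, the adaptor that links the receptor to its kinases, was 298 CPM in members, 34.3 in Dntt-positive cells and 12.4 in other WT cells, and the kinase Blk 35.1, 4.13 and 1.48. Cd79b was thus level between the non-member groups, whereas Blnk and Blk were higher in Dntt-positive cells than in other WT cells as a whole.

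Of 17 measured B lineage transcription factors, 8 were at least 2-fold higher and none at least 2-fold lower, with a median log2 ratio of 0.84. Pax5, the commitment factor of the lineage, was 142 CPM in members, 0.972 in Dntt-positive cells and 0.572 in other WT cells. Its ratio to other WT cells was 248 (183 to 343), and a Pax5 UMI was found in 73.9% of members and 0.5% of other WT cells. Lef1, a factor of the Wnt pathway active in pro-B cells, was 54.0 CPM against 0.143, a ratio of 378 (209 to 763). Id3, an inhibitor of E proteins, was 113 CPM against 1.14, a ratio of 98.5 (79.1 to 124). Pou2af1, a coactivator of octamer-binding factors, was 82.2 CPM against 0.559, and Foxo1, which drives Rag transcription, 65.7 against 8.59. For Pax5, Lef1, Id3 and Pou2af1 the Dntt-positive cells were at 1.22 CPM or less. The summed levels of these factors thus set members as a group apart from both non-member groups. Not every member held them, as a UMI of Lef1 was found in 38.9% of members, of Id3 in 48.0% and of Pou2af1 in 55.0%. Irf4 was low in all groups, at 9.52 CPM in members and 0.891 in Dntt-positive cells.

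Among the recombination genes, Rag1 and Rag2 were higher in members than in Dntt-positive cells. Dntt was 1218 CPM in members, 1226 in Dntt-positive cells, which it defines, and 407 in all other WT cells. The level in Dntt-positive cells depends on the cutoff of 2 Dntt UMIs that chose them. Rag1 was 108 CPM in members, 8.14 in Dntt-positive cells and 2.91 in other WT cells, a ratio of 13.3 (11.4 to 15.6) to Dntt-positive cells. Rag2 was 46.4, 12.1 and 4.56 CPM, a ratio of 3.84 (3.30 to 4.47) to Dntt-positive cells. Rag1 and Rag2 are neighbours, 5752 bases apart on chromosome 2, and the ratio was larger for Rag1. In all, 6 of 11 measured recombination genes were at least 2-fold higher than in other WT cells, among them Hmgb1 and Hmgb2, which bend DNA at recombination signals but are also proliferation genes.

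Receptor genes of early lymphoid cells went in opposite directions. Il7r, the interleukin-7 receptor chain, was 123 CPM in members, 42.2 in Dntt-positive cells and 14.0 in other WT cells, a ratio of 8.74 (8.02 to 9.52) to the last. Ly6d, a surface protein that marks the B-cell-biased part of the common lymphoid progenitors, was 732, 229 and 77.7 CPM. Flt3 was 92.0 CPM in members, 259 in Dntt-positive cells and 143 in other WT cells, 2.81-fold lower (2.61 to 3.03) than in Dntt-positive cells. Cd34, a progenitor surface gene, was 43.4, 403 and 367 CPM, 9.29-fold lower (8.38 to 10.3) than in Dntt-positive cells. Il7r and Ly6d were thus highest in members and lowest in all other WT cells, with Dntt-positive cells between, while for Flt3 and Cd34 the Dntt-positive cells had the highest level.

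**Figure D2:**
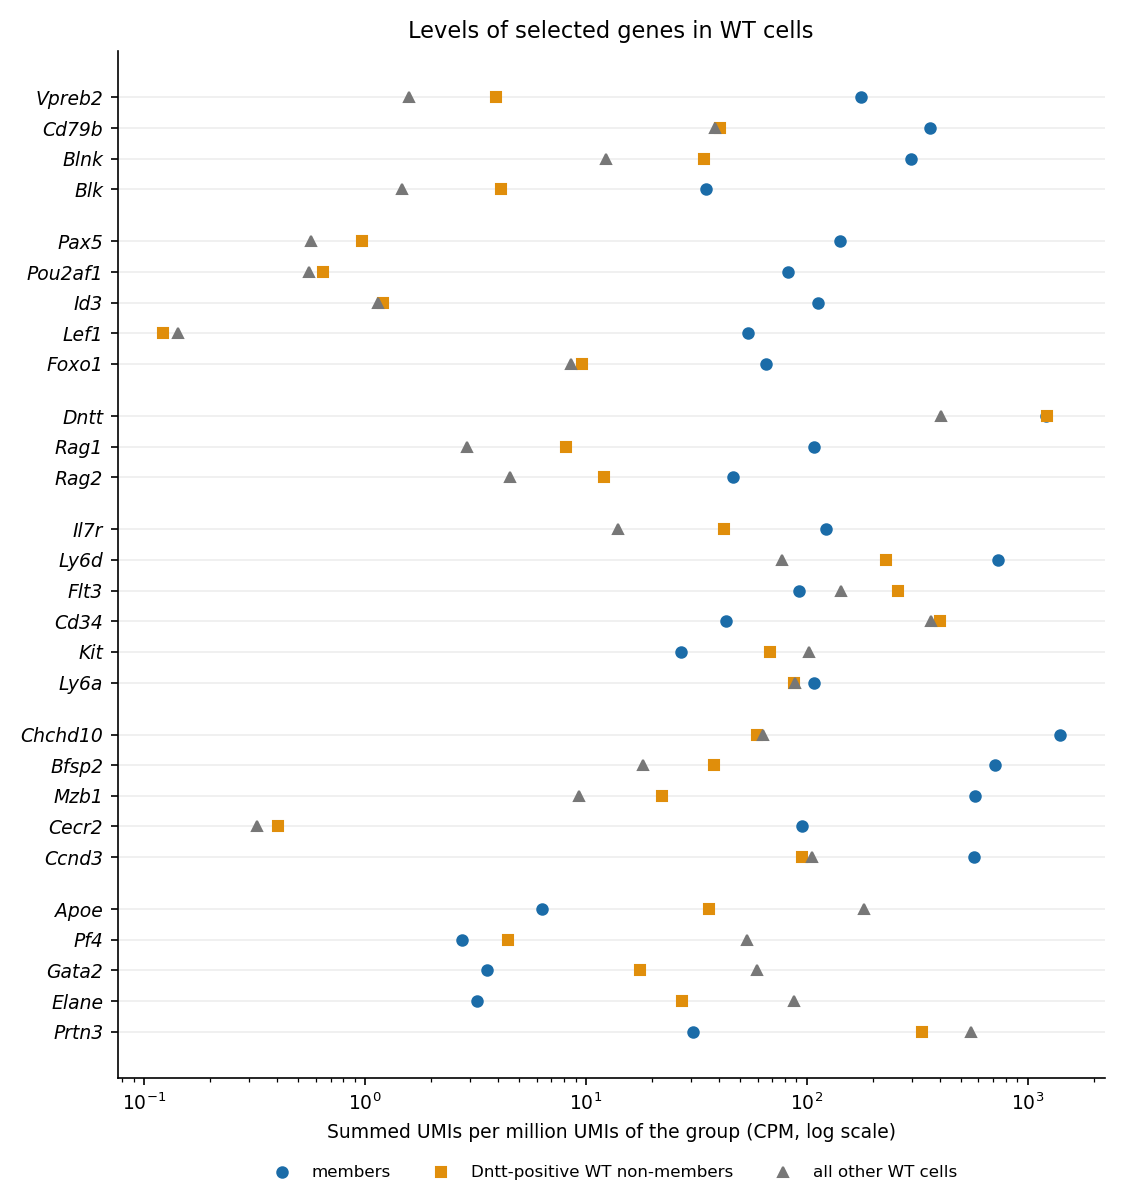
Summed UMIs per 1000000 UMIs (log scale) of selected genes in the 633 WT members (circles), 2257 Dntt-positive WT non-members (squares) and all 7514 other WT cells (triangles, which include the squares' cells). Blank lines separate pre-B receptor genes, transcription factors, recombination genes, receptors, further high genes and genes of other lineages. Pax5, Lef1 and Cecr2 lie at 1 CPM or below outside the members. The level of Dntt in Dntt-positive cells depends on the cutoff by which Dntt defines them.

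The genes of the sort antigens were measured as transcripts. Kit was 27.1 CPM in members, 68.0 in Dntt-positive cells and 102.5 in other WT cells, 3.79-fold lower (3.33 to 4.33) than in other WT cells. At equal depth, a Kit UMI was found in 14.8% of members, 31.1% of Dntt-positive cells and 42.8% of other WT cells. Ly6a, which encodes Sca-1, was 108 CPM in members and 88.4 in other WT cells, a ratio of 1.22 (1.14 to 1.31), and was found at equal depth in 39.0% and 32.9%. Ptprc, which encodes CD45 and its B220 form, was 49.3 CPM against 78.7, 1.59-fold lower (1.45 to 1.76). Members therefore carried slightly more of the Sca-1 transcript than the rest of the sort and less of the Kit transcript. The surface proteins by which the cells were sorted were not measured.

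Some of the most abundant transcripts of members lie outside the fixed lists, and the next 3 genes were chosen after their values were seen. Chchd10, which encodes a small mitochondrial protein, was 1401 CPM in members and 63.2 in other WT cells, a ratio of 22.2 (21.4 to 22.9). It lies 5309 bases from Vpreb3 on chromosome 10. Bfsp2, best known as a lens filament protein, was 715 CPM against 18.1, a ratio of 39.5 (37.3 to 41.9), and was found in 92.4% of members. Mzb1, a chaperone of immunoglobulin assembly, was 580 CPM against 9.31, a ratio of 62.3 (57.6 to 67.4). It is on the plasma cell list, where 2 of 5 measured genes were at least 2-fold higher. The other, Sdc1, was 38.2 CPM against 15.2, whereas Xbp1 was 54.5 against 55.4 and Jchain 5.39 against 8.17.

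Genes of later B cell stages were at or near 0. Of the mature B cell genes, Ms4a1 (CD20) had 1 UMI in all 633 members, Cr2 had 3, and Fcer2a and Fcmr had none. Of the late pre-B and pre-T surface genes, Il2ra and Cd2 also had none, and a count of 0, with 3 UMIs taken as its upper limit, allows up to 0.344 CPM. Of 7 measured genes of the mature list, Ly86 and Cd37 were at least 2-fold higher than in other WT cells, at 45.8 against 14.6 and 269 against 98.3 CPM. Of 9 measured MHC class II genes 1 was at least 2-fold higher, H2-DMb2 at 18.0 against 3.88 CPM, and 1 at least 2-fold lower, H2-DMb1 at 16.4 against 44.5. The others lay between, with H2-Aa at 23.4 against 39.7, Cd74, the invariant chain, at 51.5 against 64.6 and H2-Ab1 at 140 against 89.0. Heavy and light chain genes such as Ighm and Igkc were not among the 14721 genes with counts, so they could not be read.

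Genes of stem cells and of several other blood lineages were lower in members than in other WT cells. Of 14 measured stem cell genes, 13 were at least 2-fold lower than in other WT cells, and against Dntt-positive cells 10 of 12. Mecom was 1.15 CPM against 34.2 and Hlf was found in 8.5% of members against 56.9% of other WT cells. All 7 measured erythroid genes, 7 of 12 neutrophil progenitor genes, 6 of 8 megakaryocyte genes and all 4 basophil and mast cell genes were at least 2-fold lower. Their summed levels were 125 CPM in members and 769 in other WT cells for erythroid genes, 613 and 1767 for neutrophil progenitor genes, 159 and 415 for megakaryocyte genes, and 219 and 973 for basophil and mast cell genes. Single genes that other cells also express made up much of these sums: in members Car2 was 93.6 CPM of the erythroid, Calr 466 of the neutrophil progenitor, Rap1b 88.7 of the megakaryocyte and Ifitm1 212 of the basophil and mast cell sum. In other WT cells these 4 genes were at 522, 503, 122 and 865 CPM. In members 4 of the 15 erythroid, 1 of the 13 megakaryocyte and 3 of the 11 basophil and mast cell genes in the table had no UMI, whereas all 17 neutrophil progenitor genes had some. The genes with the lowest ratios included Apoe at 6.31 against 183 CPM, Elane, which encodes neutrophil elastase, at 3.21 against 87.6, Pf4 at 2.75 against 53.7 and Gata2 at 3.56 against 59.9. The monocyte-dendritic list was mixed, as 4 of 9 measured genes were at least 2-fold lower than in other WT cells and 1, Ly86, at least 2-fold higher. Irf8 was 112 CPM in members against 99.1 in other WT cells, and Cst3 409 against 455. Of the T, NK and innate lymphoid list, the receptor chains Cd3g and Cd3d had 2 UMIs each and Ncr1, Il2rb and Gzmb none. The plasmacytoid dendritic list was higher only through Ly6d, at 1 of 8 measured genes, and its summed level was 1691 CPM in members, 980 in other WT cells and 1463 in Dntt-positive cells. Against Dntt-positive cells, 2 of 3 measured erythroid, 3 of 5 megakaryocyte and all 3 basophil and mast cell genes were at least 2-fold lower. So were 6 of 11 neutrophil progenitor and 3 of 8 monocyte-dendritic genes. Some of these genes were low in both groups, with Hbb-bs at 3.79 CPM in members and 3.73 in Dntt-positive cells, and Pf4 at 2.75 and 4.46.

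Immediate early genes, which are switched on within minutes of stimulation or of cell handling, were lower in members. Of 19 measured, 14 were at least 2-fold lower than in other WT cells, and against Dntt-positive cells 15 of 20. Fos was 119 CPM against 668 in other WT cells and Egr1 17.9 against 143. Among interleukin-7 and MYC response genes, Socs2, a feedback inhibitor of cytokine signalling, was 50.8 CPM against 12.8. The survival genes Bcl2l1 and Bcl2 differed in direction, with Bcl2l1 at 21.5 CPM in members against 8.14 and Bcl2 at 28.3 against 106. Mycn was 2.07 against 34.4, while Myc was level at 83.6 against 86.2. The 23 oxidative phosphorylation genes had a median log2 ratio of 0.41 with none 2-fold different, and of 16 glycolysis genes 3 were at least 2-fold lower. Of 21 measured interferon-stimulated genes, 8 were at least 2-fold lower and 2 at least 2-fold higher.

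Members were called dividing more often than other WT cells. The call was made on cells thinned to 5500 UMIs and required over 1% of UMIs on either a list of S phase genes or a list for G2 and M phase. Of 595 members with enough UMIs, 162 (27.2%, 23.7 to 31.0%) were dividing, against 799 of 6869 other WT cells (11.6%, 10.9 to 12.4%) and 239 of 2119 Dntt-positive cells (11.3%, 9.96 to 12.7%). Among cells of 9000 to 15000 UMIs, a range of depth set after the data were seen, the share was 23.0% of members, 11.3% of other WT cells and 10.6% of Dntt-positive cells. The call rested almost wholly on the G2 and M list, which 158 members passed, and 5 passed on the S list. Of 42 measured S phase genes, 9 were at least 2-fold higher in members than in other WT cells, and of 53 G2 and M genes, 10. Rrm2, a subunit of the enzyme that makes DNA precursors, was 290 CPM against 52.6, and Gtse1, a G2 gene, 45.9 against 5.94.

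Cyclin genes differed in direction. Ccnd3, which encodes cyclin D3, was 570 CPM against 106 in other WT cells, a ratio of 5.37 (5.18 to 5.56), whereas Ccnd1 was 6.43 against 25.6. Ccne1, the cyclin of S phase entry, was 37.5 against 6.55. Inhibitors of cyclin-dependent kinases also differed in direction. Cdkn1c, an inhibitor that marks quiescent stem cells, was 1.38 against 9.65, whereas Cdkn1a was 107 against 32.4. Cdkn1b, Cdkn2c and Cdkn2d differed less, at 13.9 against 19.9, 31.6 against 21.3 and 31.6 against 35.5. Of 22 measured genes of cyclins, such inhibitors and quiescence, 4 were at least 2-fold higher in members and 6 at least 2-fold lower.

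Members not called dividing were not uniformly at rest. Their median share of S phase genes was 0.509% of UMIs, against 0.2% in other WT cells as a whole. A further split at 0.3% on the S list, set after the data were seen, gave 125 of the 595 members that were at or under 0.3% on the S list and not dividing, with no further threshold on the G2 and M list, 308 above 0.3% and not dividing (51.8%), and the 162 dividing. Of other WT cells, 55.0% were low on the S list and not dividing. Median depth differed among the 3 sets of members, at 7883, 15076.5 and 16739 UMIs.

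**Figure D3:**
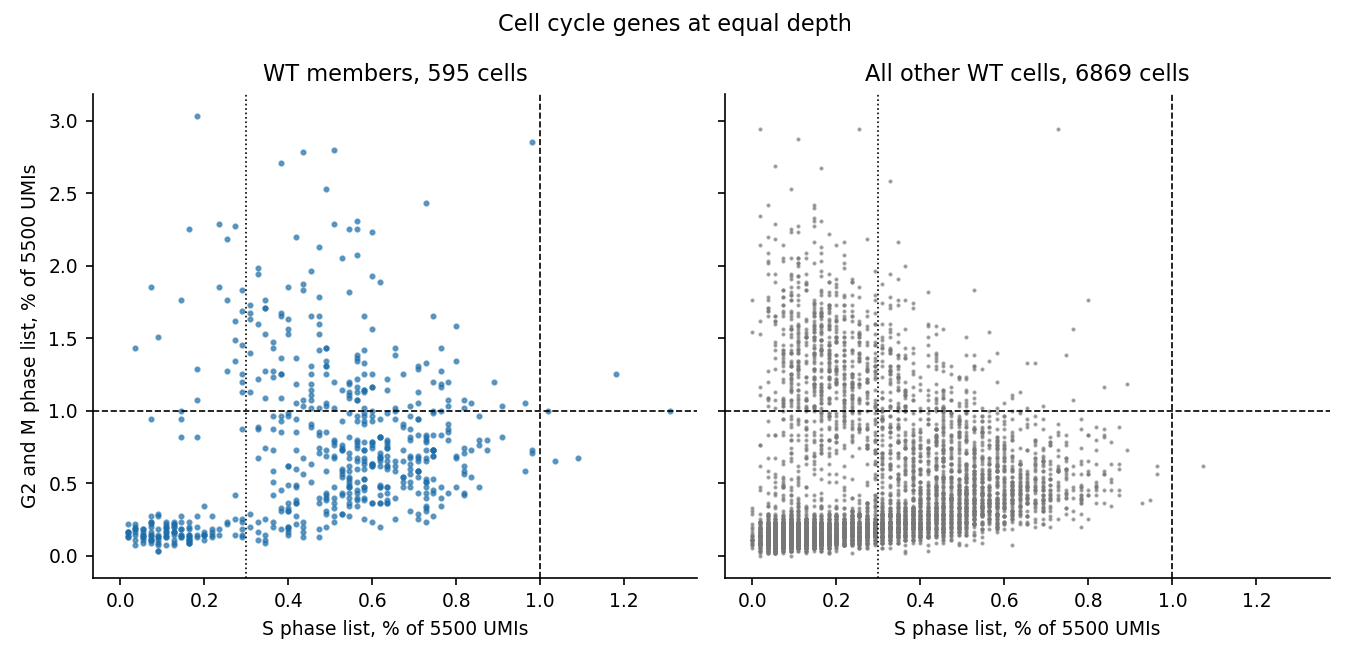
Share of 5500 UMIs on the S phase list (horizontal) and the G2 and M phase list (vertical) in 595 WT members (left) and 6869 other WT cells (right), 1 point per cell. Dashed lines are the 1% thresholds for dividing and the dotted line is the 0.3% split. Most members lie to the right of the dotted line, whereas 55.0% of other WT cells lie to its left and below the dashed line for G2 and M.

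Dividing members had more transcripts of genes of mitosis than the 433 not called dividing, as the call itself requires. Of 4766 genes with a mean of at least 20 CPM, 70 (1.47%) were at least 2-fold higher in dividing members and 45 (0.944%) at least 2-fold lower. For list members, at a mean of at least 5 CPM, the shares over 8327 genes were 1.93% and 2.75%. Leaving out the genes of both cycle lists, which the call used, the highest ratios included those of mitotic genes such as Tuba1c at 91.4 against 12.1 CPM, Aspm at 44.9 against 6.14 and the mitotic kinase Plk1 at 80.2 against 12.8. The cyclin-dependent kinase inhibitors Cdkn2d and Cdkn2c were also higher, at 65.2 against 16.5 and 59.9 against 19.1 CPM. None of the 12 measured genes of pre-B receptor signalling differed by 2-fold, and 1 of 18 B lineage factors did, Lef1, at 86.1 against 40.9 CPM. The lower genes included early surface and lymphoid genes: Flt3 was 48.3 against 110 CPM, Cd34 21.3 against 52.7, and Ltb, a lymphotoxin chain, 12.4 against 54.9. Of 19 immediate early genes, 8 were at least 2-fold lower in dividing members, with Fos at 43.8 against 151 CPM. Dntt was 1203 CPM in dividing and 1220 in other members, a ratio of 0.987 (0.946 to 1.03).

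The small set of members low on the S list and not dividing stood further apart. Igll1 was 281 CPM in these 125 cells, 1262 in the 308 with S phase genes and 1506 in the dividing cells, and Vpreb1 was 360, 1351 and 1621. Id3 followed the same order at 11.3, 113 and 154 CPM, and so did Lef1 at 3.76, 49.2 and 86.1 and Ccnd3 at 195, 586 and 689. Ly6d ran the other way at 1542, 682 and 440 CPM, as did Flt3 at 265, 75.8 and 48.3. Rag1 was 281 CPM in the low set and 81.9 and 76.0 in the other sets. Ebf1 and Pax5 differed less, at 1406, 1224 and 1527 CPM for Ebf1 and 112, 150 and 135 for Pax5. Compared with this low set alone, dividing members had 459 genes at least 2-fold higher and 485 lower, so the counts depended on which cells stood for rest.

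Surrogate light chain transcripts were unevenly spread over the members. Of the 633, 63 had no UMI of Igll1 or Vpreb1, and 130 had fewer than 5 per 10000 of the pair, the point at which the members were split after the data were seen. Of the other 503, 157 lay between 20 and 30 per 10000 and 194 between 30 and 50. The low side reached the rule through Ebf1 at 1152 CPM, Cd79a at 621 and Vpreb3 at 284, against 1392, 918 and 998 on the high side. Cells on the low side held fewer UMIs, with a median of 8314.5 UMIs against 14613, and 5.83% (2.38 to 11.6%) of them were dividing against 32.6% (28.4 to 37.1%). Igll1 and Vpreb1 were used for the split, and levels across it are a description.

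Of 5023 genes outside the rule with a mean of at least 20 CPM, 276 (5.49%) were at least 2-fold higher on the high side and 334 (6.65%) lower. For list members the shares over 8697 genes at a mean of at least 5 CPM were 5.22% and 10.6%. Genes of the high side were Id3 at 130 CPM against 6.51 and Lef1 at 62.5 against 2.44. Pax5 differed less, at 152 against 76.5 CPM, a ratio of 1.99 (1.61 to 2.48). Of 42 S phase genes, 22 were at least 2-fold higher on the high side, and of 53 G2 and M genes, 37.

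Genes of lymphoid progenitors were higher on the low side. Of 21 measured lymphoid priming genes, 12 were at least 2-fold higher on the low side and none on the high side. Flt3 was 257 CPM there against 65.0, Ly6d 1691 against 575, Notch1 121 against 35.3 and the chromatin organiser Satb1 212 against 66.8. Il18r1, an interleukin-18 receptor chain, was 48.0 CPM against 2.54, with its partner chain Il18rap at 49.7 against 8.28. Rag1 was 246 CPM against 85.9, Dntt 1929 against 1101 and Il7r 173 against 114. Among genes outside the rule and the split, the low side thus had Pax5, Rag1 and Dntt with little Id3 or Lef1. Its summed Ebf1, Cd79a and Vpreb3 follows from the rule, and its low Igll1 and Vpreb1 from the split.

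**Figure D4:**
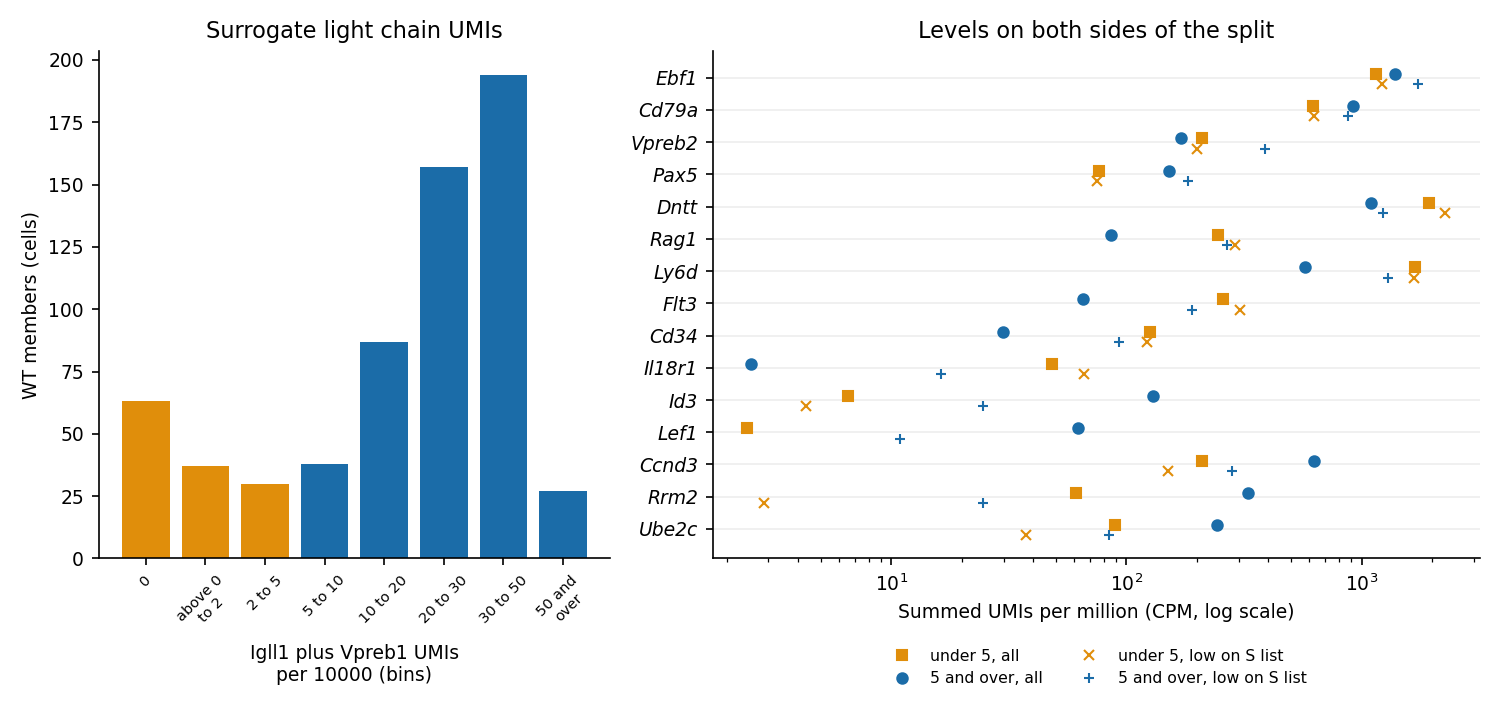
Left, number of WT members in bins of Igll1 plus Vpreb1 UMIs per 10000, with the 130 members under 5 in orange and the 503 others in blue. Right, summed UMIs per 1000000 UMIs (log scale) of selected genes on both sides, for all members (squares and circles) and for those low on the S list and not dividing (crosses, 86 cells, and plus signs, 39 cells), with no mark where a gene had no UMI. Id3 lies to the right on the high side in both readings, and so does Lef1 over all members, whereas Rag1 is level between the crosses and plus signs.

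Because the sides differed in division, levels were also read among members low on the S list and not dividing, 86 on the low side and 39 on the high side. Rag1 was then nearly level, at 289 CPM on the low side and 267 on the high side. Dntt still differed, at 2262 against 1230 CPM, and Flt3 less so, at 305 against 191. Id3 rested on 3 and 9 UMIs, at 4.31 and 24.5 CPM. Lef1 had no UMI on the low side and 4 on the high side. Among members of 7000 to 12000 UMIs, 70 on the low side and 122 on the high side, Pax5 was 1.94-fold and Ccnd3 3.29-fold higher on the high side.

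Vpreb2, which was not used for the split, was 209 CPM on the low side and 171 on the high side. Vpreb1 was 81.4 and 1510, but the split was made on Vpreb1 and imposes this difference. Whether Vpreb2 and Vpreb1 go together can therefore not be read across the split. Among members low on the S list and not dividing the order of Vpreb2 was reversed, at 200 CPM against 389. At equal depth, Vpreb2 was found in 57.5% of members on the low side and 56.0% on the high side, and Vpreb1 in 25% and 98.1%. Vpreb2 was thus found about as often on both sides, with the reservation given above on reads shared between copies.

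KO and DKO held 5 and 11 members, and the rule transcripts were spread over nearly all of these cells. All 5 transcripts were present in all 5 KO members and in 10 of the 11 DKO members. Scores ranged from 13.1 to 101.7 per 10000 in KO, with a median of 63.8, and from 13.9 to 215.5 in DKO, with a median of 80.8. Igll1 was 1208 CPM in WT members, 923 (740 to 1139) in the KO members and 1251 (1075 to 1447) in the DKO members. Ebf1 was 1358, 1051 (854 to 1279) and 1271 CPM (1094 to 1469). Chchd10, which was not used for the rule, was 1401, 881 and 1437 CPM, and Mzb1 580, 265 and 608. For these genes the KO value was the lowest over all 5 cells. For Igll1 and Ebf1, both in the rule, this order depended on the 2 cells of lowest score.

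The KO members differed among themselves. The 3 with scores of 63.8 or more held 10028 to 15031 UMIs and no Prtn3 UMI. The other 2 scored 18.4 and 13.1, held 28811 and 29813 UMIs, and carried 43 and 13 UMIs of Prtn3, a neutrophil progenitor gene, with 26 and 5 of Mpo. None of the KO or DKO members was among the highest doublet scores of its library, and what these 2 cells are was not tested. Without these 2 cells, chosen after their values were seen, the KO members had 67 UMIs each of Igll1 and Ebf1, or 1883 CPM (1459 to 2391). Both genes are in the score, and leaving out the 2 lowest scores raises the summed level of the rule genes. The WT values keep their low-scoring members, so no comparison with WT is drawn from the 3 cells left. In DKO, Prtn3 summed to 3 UMIs over the 11 cells. By the threshold of 1%, 1 of the 5 KO members and 4 of the 8 DKO members with 5500 UMIs were dividing.

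**Figure D5:**
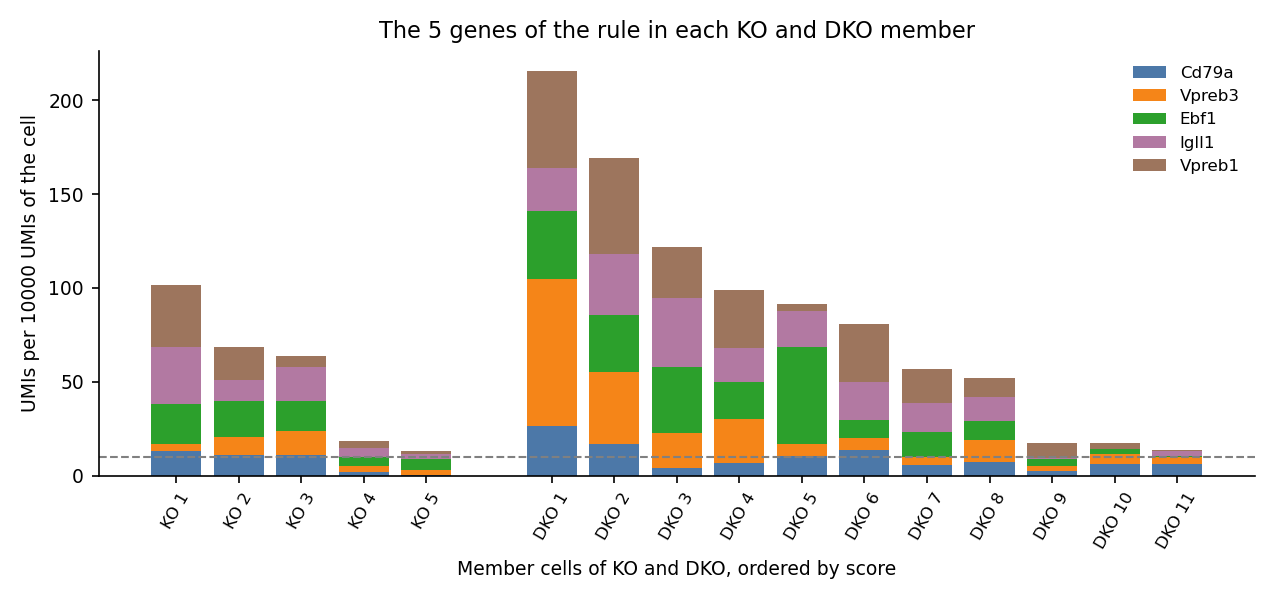
UMIs of the 5 rule genes per 10000 UMIs of the cell, stacked, in each of the 5 KO and 11 DKO member cells in order of score, with the threshold of 10 dashed. The 3 highest KO cells and the 8 highest DKO cells lie above 50, and the others between 13.1 and 18.4.

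Several B lineage genes cannot be read in KO. Pax5, Rag1, Vpreb2 and Lef1 were listed at 0 in all 4920 KO cells, as were 1025 of the 14721 genes. No gene of the KO library had a UMI in 1 to 3 cells and 21 had one in 1 to 8 cells, whereas 642 had one in 9 to 16 cells. In WT, 30 genes had a UMI in 1 to 3 cells. A 0 in KO therefore cannot be told apart from a gene left out of that library before the libraries were joined. In the 11 DKO members Pax5 was 145 CPM (89.8 to 222), Rag1 69.1 (33.1 to 127) and Vpreb2 269 (192 to 368), against 142, 108 and 176 in WT members. The DKO intervals for Pax5 and Rag1 held the WT value, and that for Vpreb2 did not. However, 17 of the 39 Vpreb2 UMIs came from 1 DKO cell, and without it, an exclusion chosen after its value was seen, Vpreb2 was 177 CPM (111 to 267), close to the WT value.

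Outside the members, KO and DKO cells held less of the rule transcripts than WT non-members did. Igll1 was 0.405 CPM (0.290 to 0.549) in KO non-members, 0.173 (0.104 to 0.270) in DKO and 5.20 (4.70 to 5.73) in WT. Vpreb1 was 2.49, 2.98 and 9.29 CPM, and Ebf1 0.365, 0.428 and 10.1. The WT library, which holds most of the members, thus had the highest level of each outside them.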

How the data were processed

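Sorted LSK cells of 3 genotypes were profiled as single cells, 1 library each. Per the submitters' processing notes, the tools included Cell Ranger, bcl2fastq and Seurat, and the build was mm10; versions are not given in the sources used here. The deposited table holds the authors' UMI counts, all whole numbers, of 21251 cells and 14721 genes, joined over the libraries, and all values were computed from these counts. The deposited normalized values are on a natural log scale and were not used for results. How the authors filtered cells and genes is not given in the sources used here.

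The members, gene lists and comparisons were chosen with earlier results of these data known, so no list is independent support. Counts of a group's cells were summed and divided by the group's total (CPM). Ratios carry exact conditional binomial, levels exact Poisson and shares exact Clopper-Pearson 95% intervals, which cover counting error only, since PCR, library and animal effects are not in them. No test was made: with 1 library per genotype, cells are not replicates. Genes were counted at a mean of at least 20 CPM over a pair and a 2-fold ratio, and list genes at 5 CPM. The genes named are the 10 highest and 10 lowest ratios of a pair, up to 6 of each list and a few fixed genes, less predicted, ribosomal, mitochondrial, globin and sex-linked ones. The values of 1 gene named by this rule are not reported here. Others are said to be chosen after their values were seen or carry a sentence's contrast.

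Scrublet in scanpy 1.11.5 called 0.0245% of WT cells, too few to be usable, so doublets were kept. An alternative left out 531 WT cells of highest score. Scripts used Python 3.11.15 and scipy 1.17.1, with edgeR 4.0.16 in R 4.3.3 for TMM factors only, and were tested on simulated data. Positions are from GENCODE vM21 on GRCm38, where 14216 symbols matched 1 gene, and promoter windows from RefSeq GRCm38.p6.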

Additional observations from a re-analysis of the deposited data

How the results depend on the processing

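No paired analysis was possible because each genotype has 1 library and no test was made. Which direction held more genes changed under some alternatives, and the cause was not tested. Higher genes outnumbered lower ones under TMM for members against other WT cells (286 and 239) and Dntt-positive cells (240 and 191), and at 50 CPM for the latter. The same held for the high side of the surrogate light chain split at 7000 to 12000 UMIs (339 and 280) and among members low on the S list. Lower genes outnumbered higher ones for dividing members at 0.5% of UMIs, with thinned cells (97 and 111) and against members at or under 0.3% on the S list. Of the gene ratios recomputed, those that crossed 1 were Dntt against Dntt-positive cells (0.776 to 1.39) and in dividing members (0.632 to 1.27), and Kit (0.955 to 1.53) and Vpreb2 (0.815, and 1.95 low on the S list) across the split. Members were 8.42% of WT at a score of at least 5 and 6.82% at 20. Counts of genes followed the thresholds. Members against other WT cells (218 higher, 315 lower) gave 561 lower at a minimum of 10 CPM, 105 and 108 at 50 CPM, 612 and 701 at 1.5-fold, and 97 and 138 at 3-fold. Against Dntt-positive cells (177 and 245) the counts were 435 lower, 92 and 89, 595 and 608, and 77 and 94 in the same order. Dividing members (70 and 45) gave 106 and 96 at 10 CPM, 29 and 12 at 50 CPM, 199 and 197 at 1.5-fold and 31 and 10 at 3-fold. With equal weight for each cell 86 were lower, and with thinned cells 111. With dividing set at 0.5% of UMIs the counts were 242 and 314, at 2% 283 and 186, and against members at or under 0.3% on the S list 459 and 485. The dividing share of members was 71.9% at 0.5% and 3.36% at 2%, against 33.0% and 0.713% of other WT cells and 33.3% and 0.897% of Dntt-positive cells, and 23.0% at 9000 to 15000 UMIs. With the other 4 genes at a score of 4 and 16, the ratio was 212 and 91.4 for Cd79a and 101 and 54.3 for Ebf1, and at 16 it was 189 for Vpreb3. The surrogate light chain split (276 and 334) gave 182 and 167 among members low on the S list, where the cells are fewer. The Lef1 ratio there has no value, since 1 side had no UMI. Depth limits single genes in the KO and DKO members, where 3 UMIs amount to 31.8 and 20.7 CPM.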
